A study of Mus musculus with 11 samples.

Results

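The clustered protocadherins are cell-surface adhesion proteins encoded by 3 neighbouring gene clusters, α, β and γ, and they were followed here in RNA sequencing of the mouse hippocampus. The members are all genes of the deposited count table whose symbol starts with Pcdha, Pcdhb or Pcdhg followed by a member number, with or without a letter before it. There were 58 of them among the 30681 genes of the table, 14 in the α, 22 in the β and 22 in the γ cluster. Membership goes by symbol, but the family was selected on results of the genotype comparison (fold changes between these same libraries), so the genotype differences below are a description of the members with no test of the set. The study compared mice carrying a conditional knockout of Dclk3, a doublecortin-like kinase gene, with wild-type (WT) mice, all aged 6 months. A conditional knockout (cKO) removes a gene only in cells that express a recombinase, but the sources used here name neither the recombinase line nor the deleted exons. There were 6 libraries labelled cKO and 5 WT libraries, each of polyadenylated RNA from 1 hippocampus. Whether different animals gave the libraries is not stated in the labels, so errors and tests cover the spread between these samples, which may be technical.

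The total count was 24001828 to 35674490 in the libraries labelled cKO and 29644384 to 33361557 in WT. Dclk3 itself averaged 20.1 ± 3.44 CPM (counts scaled to a common library total) over the 6 libraries labelled cKO, against 22.4 ± 3.31 CPM over the 5 WT libraries (± SD), with overlapping values, so the count of the whole gene does not check the labels. Xist and Y-linked transcripts marked every library labelled cKO as male, WT replicates 1, 3 and 4 as female and WT replicates 2 and 5 as male. No female library was labelled cKO. In both groups the neuronal markers Rbfox3, Snap25, Syt1, Tubb3, Slc17a7, Gad1 and Gad2 and those of the dentate gyrus, CA1 and CA3 were all detected.

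Neurons use the clustered protocadherins as an identity code. A neuron switches on a few α, β and γ members, largely at random and separately on each chromosome copy, and the proteins bind only to identical partners on facing membranes, which lets a cell tell its own branches from those of others. The members at the 3′ ends of the α and γ clusters, called C-type (Pcdhac1, Pcdhac2, Pcdhgc3, Pcdhgc4 and Pcdhgc5), are switched on by other means and are found more evenly from cell to cell. In bulk tissue a level sums over many cells, and fewer cells with a member cannot be told apart from less RNA of it per cell.

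All 58 genes lie on the plus strand of chromosome 18 of the mouse genome (build mm10, GENCODE M21 annotation). The α cluster spans positions 36930184 to 37187661, the β cluster 37264938 to 37524479 and the γ cluster 37661793 to 37841873. Each β gene is a single exon. An α or γ gene is instead a variable first exon of its own spliced to constant exons at the end of its cluster, and those constant exons are annotated to every gene of the cluster. The exon bases that belonged to a gene alone made up a median of 46.5% for the α, 100% for the β and 55.3% for the γ genes. How the authors' counting treated reads on shared exons is not given in the sources used here, so the counts of α and γ members are uncertain, as are those of β members, which are similar in sequence. Levels below are given per kb of exon bases that no other annotated gene on the same strand shares.

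Per unshared kb, the C-type genes Pcdhgc3 and Pcdhgc5 stood above all other members. Pcdhgc3, which in mouse neurons promotes dendrite branching, had a level of 33.7 ± 2.78 CPM per kb (SD over 11 libraries), and Pcdhgc5, which has been found to associate with GABA-A receptors, had 20.4 ± 2.02 CPM per kb. The lowest library of Pcdhgc3 (29.96 CPM per kb) lay above the highest of Pcdhgc5 (23.3 CPM per kb). Next came Pcdhga11 with 9.64 ± 0.639 and Pcdhac2 with 9.54 ± 0.845 CPM per kb, a pair that did not differ beyond its spread, and then Pcdhga6 with 5.66 ± 0.962 and Pcdhb9 with 5.55 ± 0.673 CPM per kb, which did not either. The median level was 0.868 CPM per kb over the 14 α members, 1.41 over the 22 β members and 3.68 over the 22 γ members.

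A C-type gene was not always among the high ones. Pcdhac2, known from serotonergic axons, whose spacing needs it, made up 49.5% ± 1.67 of the summed α level per kb (SD over 11 libraries). Pcdhac1, its neighbour, had 1.04 ± 0.0948 CPM per kb, close to Pcdha5 with 1.10 ± 0.143 and Pcdha9 with 1.11 ± 0.304. Pcdhgc4, which interneurons need to survive, had 2.41 ± 0.365 CPM per kb, below the γ median and below 10 of the 12 γA members. Together the 5 C-type genes made up 38.3% ± 0.698 of the summed level per kb over the 6 libraries labelled cKO, against 36.9% ± 0.826 over the 5 WT libraries (± SD). Counted over all exon bases in place of unshared ones, their share over the 11 libraries was 34.6% in place of 37.7%, and Pcdhgc3 and Pcdhgc5 still ranked 1 and 2 of 58. The order below them changed, with Pcdhb9 at rank 3 in place of 6. Pcdhb9 had 5.55 CPM per kb on that length, Pcdhga11 5.34, Pcdhac2 4.90 and Pcdhga6 3.13.

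**Figure D1:**
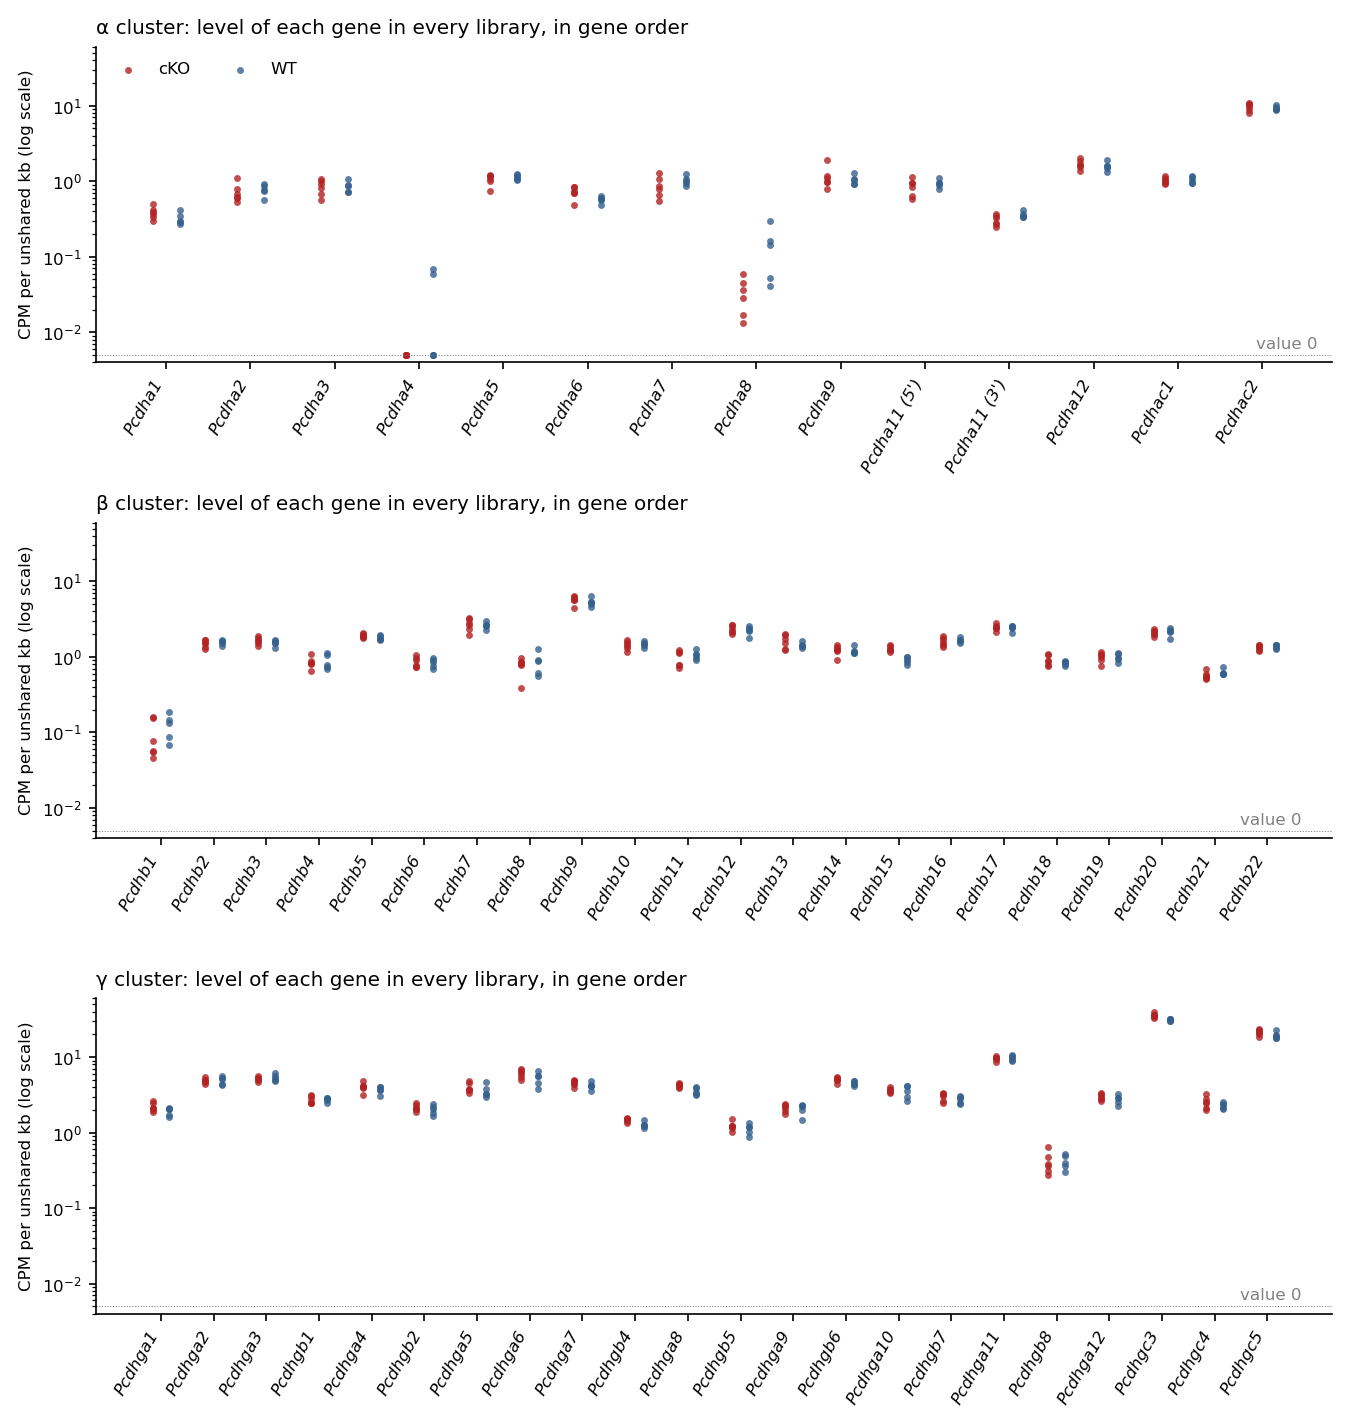
Level of each of the 58 clustered protocadherins in every library, in CPM per kb of unshared exon bases on a log axis, with genes in their order along the α, β and γ clusters (libraries labelled cKO in red, WT in blue; libraries at 0 are drawn on the dotted line). Pcdhgc3 and Pcdhgc5 stand highest at the end of the γ cluster, Pcdhac2 at the end of the α cluster and Pcdhb9 in the middle of the β cluster, while Pcdha4, Pcdha8 and Pcdhb1 lie lowest.

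Among the γ members that are not C-type, the 12 γA genes had a median of 3.90 CPM per kb, from 2.07 (Pcdhga1) to 9.64 (Pcdhga11). The 7 γB genes, which differ from them in sequence and are interspersed among them, had a median of 2.08 CPM per kb, from 0.411 (Pcdhgb8, annotated as a polymorphic pseudogene) to 4.80 (Pcdhgb6). Both subfamilies thus covered ranges that overlapped. In the β cluster Pcdhb9 was highest and Pcdhb7 second with 2.66 ± 0.390 CPM per kb, and 20 of the 22 genes lay between 0.599 (Pcdhb21) and 2.66 CPM per kb (Pcdhb7). Pcdhb1, the β gene nearest to the α cluster, had 0.106 CPM per kb, and its count was 4 to 16 per library.

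Pcdha4 was counted at 0 in 9 libraries and at 1 in WT replicates 2 and 3. Pcdhac2, which has the same constant exons, was counted at 687 to 1119, so reads on those exons were not counted in full for every α gene. Of its exon bases 8.56% were unshared, the smallest part among the members, and it shares exon bases with Gm42416, a gene that is no member. Pcdha6, Pcdha7 and the 3′ of the genes named Pcdha11 also share exon bases with genes that are no members (Gm37013, Gm37388 and Gm18150), and all 22 γ members share exon bases with 4 such genes (Gm37013, Gm37388, Gm38182 and Gm42416). The part of these overlaps in the counts was not tested. The table gives the symbol Pcdha11 to 2 adjacent genes, ENSMUSG00000007440 with 0.887 ± 0.173 and ENSMUSG00000102206 with 0.331 ± 0.0501 CPM per kb. They are kept apart by identifier here.

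Of the 58 members 56 passed the filter on low counts and entered the genotype comparison, and Pcdha4 and Pcdha8 did not. The comparison was fitted over all 16587 genes that passed, with edgeR's quasi-likelihood test and Benjamini-Hochberg adjustment. No member was called at an adjusted p under 0.05, and neither was any other gene (0% of the genes tested, in either direction). At an unadjusted p under 0.05 there were 5 members with higher values in the libraries labelled cKO (Pcdhb15, Pcdhgc3, Pcdhga8, Pcdhgb4 and Pcdhgb6) and 0 with lower values, where the shares over all genes tested were 3.84% higher and 5.35% lower. DESeq2 called 58 genes (0.375% of those it gave an adjusted p) and among them 2 members, Pcdhb15 and Pcdhgc3, both higher (0.187% of all genes were called higher). These same 2 members had every library labelled cKO above every WT library, as did 0.404% of all genes tested, and 0 members had every one below, as did 0.512% of all genes.

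Most γ members had slightly higher values in the libraries labelled cKO. Of the 22 tested γ members 17 had a positive log2 fold change and 5 a negative one, with a median of 0.13. Of all genes tested 50% were positive, and their median was -7.9e-05. The γ genes share constant exons, so the 22 fold changes may not be separate observations. Counts per library were 22 to 44 for Pcdhgb8 and 2769 to 4526 for Pcdhgc3. Reads on those exons were thus not counted in full for every γ gene, and how far the fold changes depend on each other was not tested. Of the 12 tested α members 5 were positive and 7 negative (median -0.04), and of the 22 β members 12 were positive and 10 negative (median 0.02). The differences were small, since 53 of the 56 tested members lay within 0.25 of 0 on the log2 scale. Pcdhb15, Pcdha6 and Pcdhb1 lay beyond it.

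The summed level of the 22 γ genes shows how far the groups overlapped. It was 386, 419 and 449 CPM as the lowest, median and highest of the libraries labelled cKO, against 389.5, 366, 368, 418 and 371 CPM in WT replicates 1 to 5. The cKO mean was 418 ± 21.9 CPM and the WT mean 383 ± 21.9 CPM (SD, n = 6 and 5), a ratio of 1.09. The groups overlapped through WT replicates 1 and 4, both female. WT replicate 1 lay above cKO replicate 1, the lowest of its group. WT replicate 4 lay above cKO replicates 1, 2 and 5 (386, 409 and 408 CPM) and close to the cKO median. Both male WT libraries (366 and 371 CPM) lay below all 6 libraries labelled cKO. So did the remaining female WT library, replicate 3 (368 CPM), which lay between the male ones. In a fit of the 8 male libraries alone 21 of the 22 γ members were positive, with a median log2 fold change of 0.17, but only 2 WT libraries stood behind it. The α median was 0.05 in that fit, the opposite sign of that over all libraries, with 6 of 12 members positive, and the β median was 0.06, with 14 of 22 positive. Over all genes 8549 of 16584 were positive there.

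Across the α and β clusters the sums overlapped more fully. The α sum was 46.8, 53.7 and 61.5 CPM as the lowest, median and highest of the libraries labelled cKO, against 51.4, 49.6, 54.0, 57.3 and 52.2 CPM in WT, so that the whole WT range lay inside the cKO range. For the β sum the values were 124, 139 and 152 CPM (lowest, median and highest of the libraries labelled cKO) against 136, 134, 134, 143 and 133 CPM in WT. Again every WT library lay within the cKO range, and the means differed by ratios of 1.01 (α) and 1.02 (β).

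**Figure D2:**
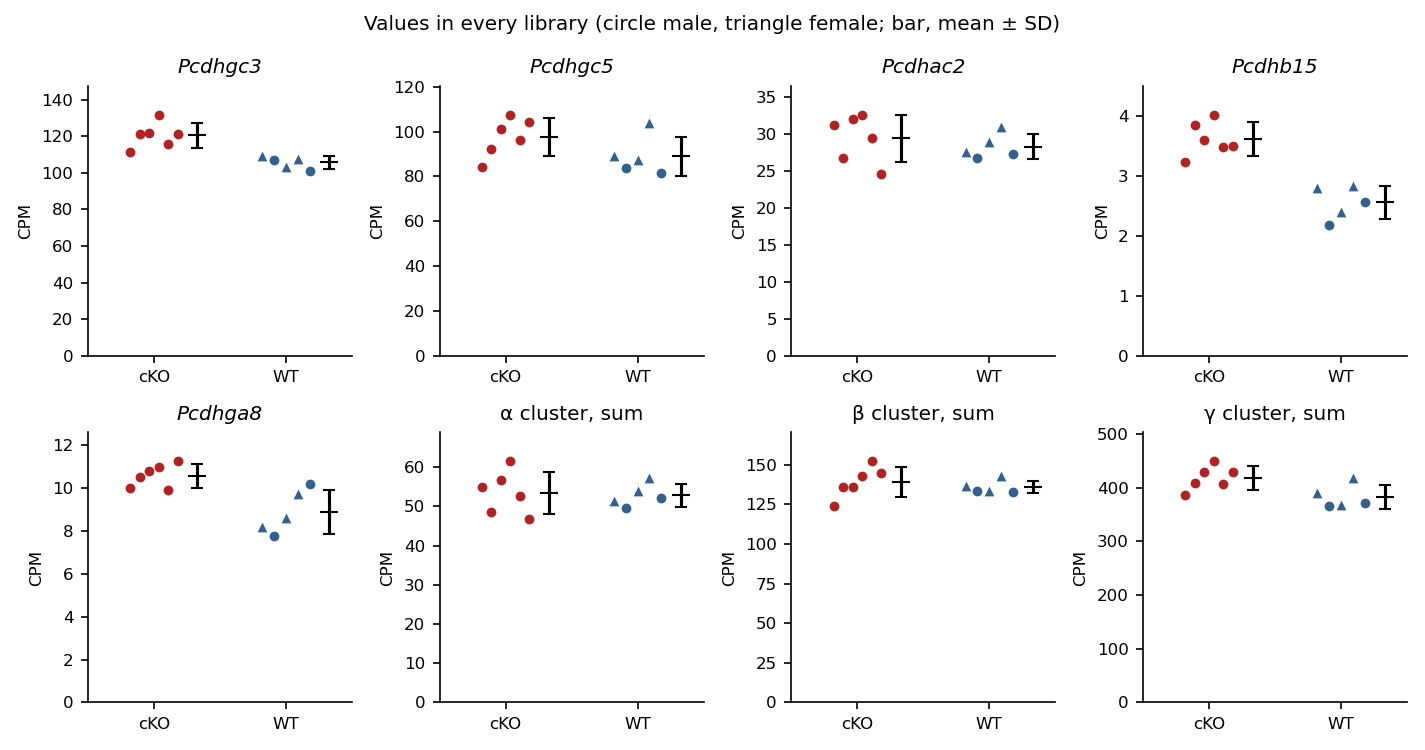
CPM in every library for 5 clustered protocadherins and for the sum over each cluster, with libraries labelled cKO on the left in red and WT on the right in blue (circles male, triangles female; the bar is the mean ± SD, n = 6 and 5). The groups do not overlap for Pcdhgc3 and Pcdhb15, and overlap for the other genes and all 3 sums.

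Pcdhgc3 was the C-type gene whose groups did not overlap. Pcdhgc3 had 111, 121 and 132 CPM as the lowest, median and highest of the libraries labelled cKO, against 109, 107, 103, 108 and 101 CPM in WT replicates 1 to 5. All 6 libraries labelled cKO lay above every WT library, by a narrow gap between 111 CPM in cKO replicate 1 and 109 CPM in WT replicate 1. Its log2 fold change was 0.19 ± 0.05 (SE), and 0.21 in the 8 male libraries. Leaving out each library in turn gave 0.17 to 0.22.

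Pcdhgc5, the last gene of the γ cluster, had 84.3, 98.6 and 107 CPM as the lowest, median and highest of the libraries labelled cKO, against 88.9, 83.6, 87.4, 104 and 81.6 CPM in WT replicates 1 to 5. The groups overlapped, with cKO replicate 1 low in its group and WT replicate 4 high in its own, and the log2 fold change was 0.13 ± 0.07 (SE). Both male WT libraries lay below all libraries labelled cKO, and the log2 fold change was 0.24 in the 8 male libraries and with a sex term. Pcdhgc4 had 6.998, 8.72 and 11.3 CPM as the lowest, median and highest of the libraries labelled cKO, against 8.76, 7.38, 8.21, 7.03 and 8.04 CPM in WT replicates 1 to 5. cKO replicate 3 was the high library, the WT range lay inside the cKO range, and the log2 fold change of 0.16 ± 0.11 (SE) was 0.07 without that library.

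In the α cluster both C-type genes had overlapping groups. Pcdhac2 had 24.5, 30.3 and 32.6 CPM as the lowest, median and highest of the libraries labelled cKO, against 27.6, 26.7, 28.9, 30.9 and 27.2 CPM in WT replicates 1 to 5. The WT libraries all lay inside the range of those labelled cKO, with a log2 fold change of 0.06 ± 0.07 (SE). Pcdhac1 had 2.36, 2.60 and 2.97 CPM as the lowest, median and highest of the libraries labelled cKO, against 2.43, 2.93, 2.70, 3.01 and 2.40 CPM in WT replicates 1 to 5. Its log2 fold change was -0.04 ± 0.12 (SE), and the ranges of the groups nearly coincided.

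The largest positive fold change of the 56 was that of Pcdhb15, a β member. Pcdhb15 had 3.23, 3.55 and 4.01 CPM as the lowest, median and highest of the libraries labelled cKO, against 2.80, 2.18, 2.41, 2.83 and 2.56 CPM in WT replicates 1 to 5. Every library labelled cKO lay above every WT library, female and male alike. The log2 fold change was 0.50 ± 0.11 (SE, 95% interval 0.27 to 0.73), it was 0.61 in the 8 male libraries, and leaving out each library in turn gave 0.45 to 0.54. These values come from the same libraries, and the interval takes no account of the gene being the most extreme of the 56. Its adjusted p was 0.299 in the edgeR test, though DESeq2 called it. Its counts were low, at 83 to 138 in the libraries labelled cKO and 64 to 95 in WT. The genes on either side of it in the cluster did not share the difference, with log2 fold changes of 0.02 ± 0.10 for Pcdhb14 and -0.05 ± 0.09 for Pcdhb16 (SE); no test compared them with Pcdhb15.

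The other β genes named by the rule had overlapping groups. Pcdhb13 had 4.57, 6.07 and 7.45 CPM as the lowest, median and highest of the libraries labelled cKO, against 5.98, 5.14, 5.10, 5.30 and 4.87 CPM in WT replicates 1 to 5. High values in cKO replicates 3 to 5 went with low ones in cKO replicates 1 and 6, and the log2 fold change was 0.19 ± 0.13 (SE). Pcdhb18 had 3.83, 4.43 and 5.57 CPM as the lowest, median and highest of the libraries labelled cKO, against 3.77, 4.25, 4.02, 4.26 and 4.41 CPM in WT replicates 1 to 5. Here cKO replicates 1, 4 and 5 lay above every WT library and the other 3 among them, and the log2 fold change was 0.15 ± 0.11 (SE). The most abundant β gene by CPM was Pcdhb9. Pcdhb9 had 13.5, 17.8 and 19.5 CPM as the lowest, median and highest of the libraries labelled cKO, against 15.4, 16.5, 16.3, 19.4 and 14.0 CPM in WT replicates 1 to 5. Its WT range lay inside the cKO range, with a log2 fold change of 0.10 ± 0.09 (SE). Pcdhb17 and Pcdhb14 came next by CPM, and both had overlapping groups.

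Pcdhb17 had 10.0, 11.5 and 12.9 CPM as the lowest, median and highest of the libraries labelled cKO, against 9.54, 11.7, 12.1, 11.8 and 11.1 CPM in WT replicates 1 to 5. WT replicate 1 was its lowest library and cKO replicate 6 its highest, with a log2 fold change of 0.03 ± 0.08 (SE). Pcdhb14 had 7.99, 10.8 and 12.5 CPM as the lowest, median and highest of the libraries labelled cKO, against 12.4, 10.5, 10.1, 9.95 and 9.89 CPM in WT replicates 1 to 5. Here cKO replicate 1 stood low in its group and WT replicate 1 high in its own, and the log2 fold change was 0.02 ± 0.10 (SE).

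Of the γ genes that are not C-type, Pcdhga8 and Pcdhgb4 had the smallest p. Pcdhga8 had 9.89, 10.6 and 11.2 CPM as the lowest, median and highest of the libraries labelled cKO, against 8.20, 7.76, 8.62, 9.74 and 10.2 CPM in WT replicates 1 to 5. WT replicate 5, a male library, stood among the libraries labelled cKO and the other 4 WT libraries below them, and the log2 fold change was 0.25 ± 0.08 (SE). Pcdhgb4 had 4.84, 5.40 and 5.53 CPM as the lowest, median and highest of the libraries labelled cKO, against 4.33, 4.53, 4.11, 5.33 and 4.48 CPM in WT replicates 1 to 5. WT replicate 4 alone stood among the libraries labelled cKO, and the log2 fold change was 0.21 ± 0.09 (SE). Pcdhga11, the most abundant γA gene, differed from these. Pcdhga11 had 22.8, 25.3 and 27.1 CPM as the lowest, median and highest of the libraries labelled cKO, against 27.4, 23.2, 25.3, 28.3 and 24.3 CPM in WT replicates 1 to 5. WT replicates 1 and 4 lay above the highest library labelled cKO and cKO replicate 5 below the lowest WT library, with the rest overlapping. Its log2 fold change of -0.03 ± 0.06 (SE) turned to 0.09 in the 8 male libraries and with a sex term.

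α members with smaller counts gave wider errors. Pcdha6 had a log2 fold change of 0.31 ± 0.16 (SE). Pcdha6 had 1.10, 1.65 and 1.93 CPM as the lowest, median and highest of the libraries labelled cKO, against 1.31, 1.33, 1.47, 1.10 and 1.36 CPM in WT replicates 1 to 5. cKO replicate 2 lay just below the lowest WT library, WT replicate 4, while the other 5 libraries labelled cKO lay above every WT library. Pcdha1 had 0.731, 0.946 and 1.25 CPM as the lowest, median and highest of the libraries labelled cKO, against 1.03, 0.715, 0.851, 0.685 and 0.746 CPM in WT replicates 1 to 5. cKO replicate 4 was its highest library and the groups overlapped, with a log2 fold change of 0.24 ± 0.19 (SE).

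The 3′ of the genes named Pcdha11, ENSMUSG00000102206, had 1.13, 1.39 and 1.68 CPM as the lowest, median and highest of the libraries labelled cKO, against 1.53, 1.60, 1.94, 1.55 and 1.72 CPM in WT replicates 1 to 5. WT replicate 3 was its highest library, the groups overlapped, and the log2 fold change was -0.24 ± 0.15 (SE). Pcdha12 and Pcdha9 were the most abundant α genes by CPM after Pcdhac2. Pcdha12 had 3.39, 4.05 and 4.96 CPM as the lowest, median and highest of the libraries labelled cKO, against 3.68, 3.30, 3.96, 4.71 and 3.96 CPM in WT replicates 1 to 5. Both groups covered much the same range, and the log2 fold change was 0.09 ± 0.12 (SE). Pcdha9 had 1.96, 2.59 and 4.80 CPM as the lowest, median and highest of the libraries labelled cKO, against 2.31, 2.62, 2.55, 3.19 and 2.30 CPM in WT replicates 1 to 5. cKO replicate 4 stood apart from all other libraries, and the log2 fold change of 0.16 ± 0.19 (SE) was -0.05 without it.

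In the 8 male libraries alone the log2 fold change of several of these genes moved by over 1.5 times. It was further from 0 for Pcdhac2 (0.13), Pcdha12 (0.20), Pcdha1 (0.39), Pcdhb9 (0.20) and Pcdhb14 (0.07). Pcdhb18, Pcdhac1 and Pcdhb17 were nearer to 0 there, at 0.09, -0.02 and 0.02.

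**Figure D3:**
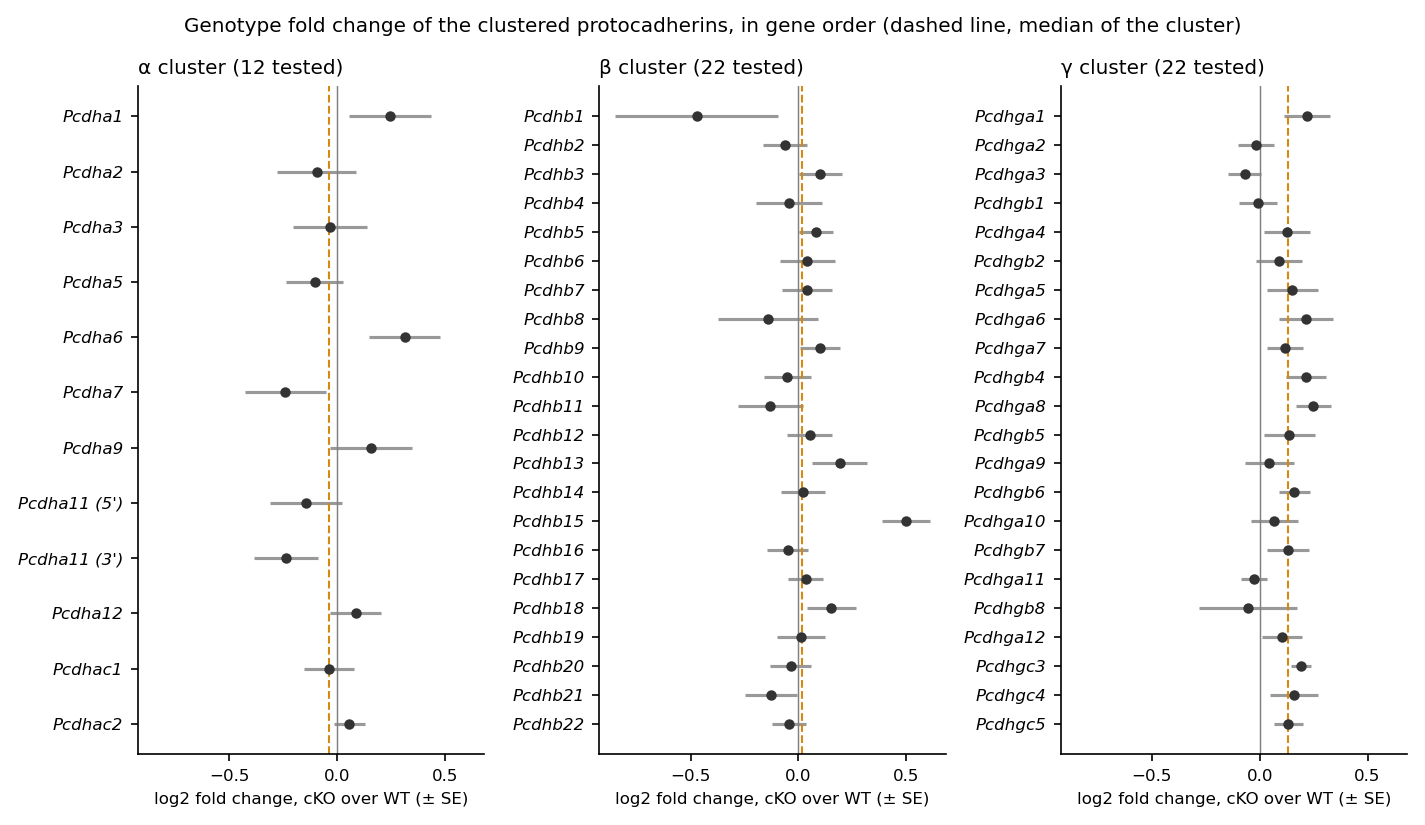
Log2 fold change, libraries labelled cKO over WT, of the 56 tested clustered protocadherins, in gene order from top to bottom in each cluster (points; bars are ± SE; the dashed line is the median of the cluster). The γ points lie mostly right of 0 with a median of 0.13, the α and β medians lie near 0 at -0.04 and 0.02, and Pcdhb15 stands furthest right at 0.50.

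Marker sums of every cell type overlapped between the groups, and their part in the γ values was not tested. The summed level of 5 astrocyte markers (Gfap, Aqp4, Aldh1l1, Slc1a3 and Gja1) spanned 2584 to 5278 CPM in libraries labelled cKO, against 2354 to 3051 CPM in WT, with all 5 means higher. The 4 microglial markers summed to 317 to 406 CPM in libraries labelled cKO, against 306 to 343 CPM in WT, again with all 4 means higher. Of the 4 oligodendrocyte markers 2 had higher means, with sums of 3616 to 4995 CPM in libraries labelled cKO, against 3838 to 4608 CPM in WT. Neither of the 2 markers of oligodendrocyte precursors had a higher mean, with sums of 67.8 to 90.8 CPM in libraries labelled cKO, against 80.9 to 93.5 CPM in WT. Neuronal markers summed to 4879 to 6010 CPM in libraries labelled cKO, against 5100 to 5333 CPM in WT, with 6 of 7 means higher. The 5 choroid plexus markers summed to 76.7 to 244 CPM in libraries labelled cKO, against 85.2 to 152 CPM in WT, with 1 mean higher. The 244 CPM was cKO replicate 5, and the next of its group was cKO replicate 3 at 111 CPM. The 5 meningeal markers summed to 79.3 to 169 CPM in libraries labelled cKO, against 112 to 165 CPM in WT, with 1 mean higher. No marker of these lists was at 0.

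Sex was looked at within the WT group, where 3 female and 2 male libraries allow no 2-sided exact permutation p under 0.1. The summed level was 54.2 CPM in female and 50.9 CPM in male WT libraries for α, 138 and 133 CPM for β and 392 and 369 CPM for γ, each with an exact permutation p of 0.3. None of the 56 tested members had all 3 female libraries above or all 3 below the 8 male ones. The corresponding share over all genes tested was 0.838% above and 0.838% below.

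Pcdha8, picked out after its values were seen, was the exception among the untested members. Its counts were 1, 4, 3, 5, 1 and 2 in replicates 1 to 6 labelled cKO, against 13, 3, 12, 25 and 4 in WT replicates 1 to 5. The 3 female WT libraries held 50 counts and the other 8 libraries 23 in all. In CPM the female WT libraries had 0.352 to 0.745, the male WT libraries 0.102 to 0.130 and the male libraries labelled cKO 0.033 to 0.145. The female values thus lay above all 8 male ones of both genotypes. Within WT the 2-sided exact permutation p was 0.1, the smallest that 10 splits allow, and the gene was chosen for this pattern, so it is a description only. Its neighbour Pcdha9 did not share the pattern, with 2.31, 2.55 and 3.19 CPM in the female WT libraries and 2.62 and 2.30 CPM in the male ones.

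Between libraries of a group the members varied about as much as other genes of their abundance. The biological coefficient of variation fitted by edgeR was at a median of 11.8% over the 56 members, where the trend for genes of the same abundance was 13.5%, and it exceeded the trend for 16 of them, against 4442 of 16587 genes tested. The median over all genes tested also lay below its trend, at 8.97% against 9.42%. Pcdhb8 stood furthest above the trend, at 25.5% against 16.8%. Its values were 1.34, 2.87 and 3.33 CPM as the lowest, median and highest of the libraries labelled cKO, against 3.12, 2.11, 1.94, 4.38 and 3.18 CPM in WT replicates 1 to 5. The lowest was cKO replicate 4 and the highest WT replicate 4, with the other 9 libraries between 1.94 and 3.33 CPM. Pcdhga6 (14.3% against 10.3%) and Pcdha9 (20.8% against 16.9%) followed. WT replicate 3 was the low library of Pcdhga6, at 9.83 CPM, while the other 10 had 12.0 to 18.1 CPM, and cKO replicate 4 was the high library of Pcdha9.

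**Figure D4:**
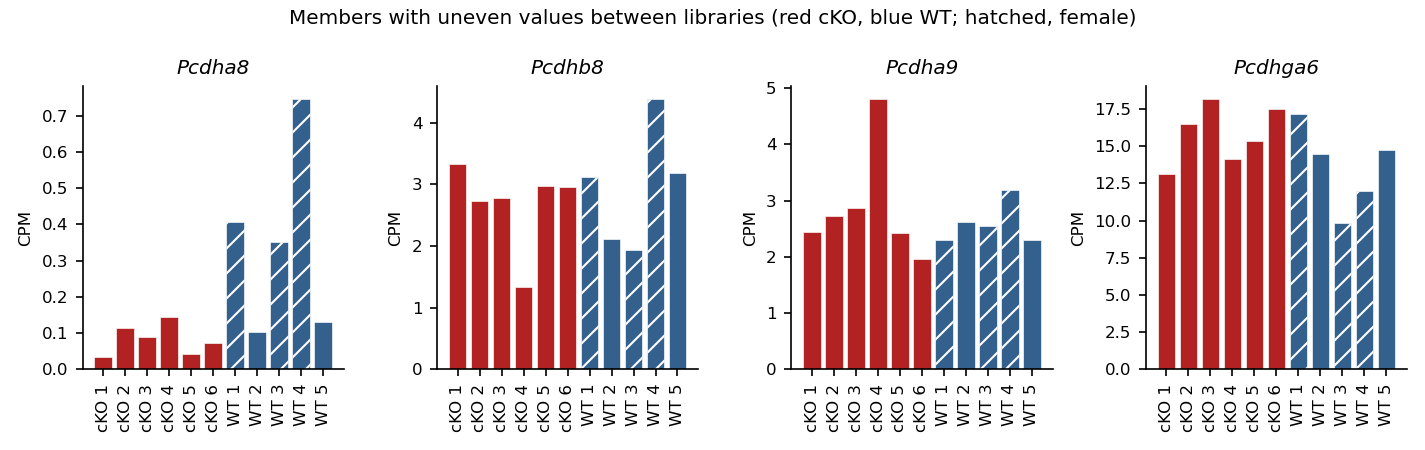
CPM in each of the 11 libraries for Pcdha8, Pcdhb8, Pcdha9 and Pcdhga6 (bars from 0; libraries labelled cKO in red on the left, WT in blue on the right; female libraries hatched). Pcdha8 is high in the 3 female WT libraries, Pcdhb8 is lowest in cKO replicate 4 and highest in WT replicate 4, Pcdha9 is highest in cKO replicate 4 and Pcdhga6 is lowest in WT replicate 3.

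Members varied together only loosely. After the group means were removed, the mean pairwise Pearson correlation of log2 CPM over the 11 libraries was 0.10 over 1540 pairs of tested members. It was 0.20 among γ members (231 pairs), 0.19 among α members (66 pairs) and 0.11 among β members (231 pairs). Between clusters it was 0.12 for α with γ, 0.10 for β with γ and -0.01 for α with β. These are descriptions, since the libraries share their scaling and the lower counts carry sampling noise that weakens any correlation. The α genes and the γ genes also share constant exons within their cluster, unlike the β genes. Reads on those exons were not counted in full for every gene, and their part in the α and γ correlations was not tested. Pcdhgc5 and Pcdhga5 had the highest mean correlation with the other 55 members, both at 0.28, and Pcdhb21 the lowest, at -0.18.

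**Figure D5:**
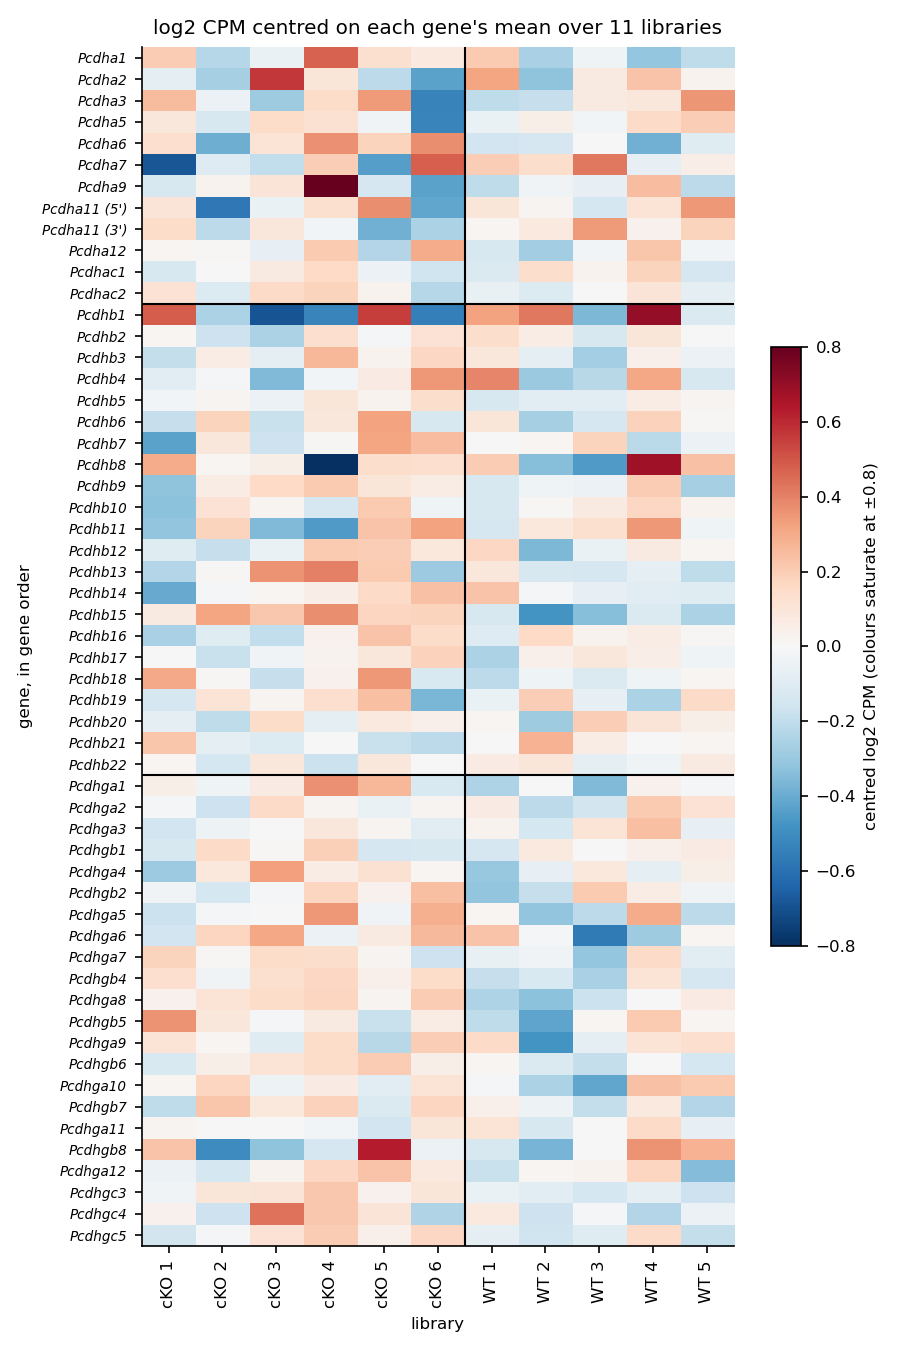
Log2 of CPM + 0.1 of the 56 tested clustered protocadherins in each library, centred on the mean of each gene over the 11 libraries, with genes in order along the α, β and γ clusters from top to bottom and libraries labelled cKO left of the line, WT right of it. The row of Pcdhb15 changes sign at the line, and the columns of cKO replicate 4 and WT replicate 4 are mostly above 0 in the γ cluster.

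The genes around and within the clusters were looked at next. Of 56 annotated genes of the table within 500 kb of the clusters or inside them that are not members, 31 were tested, with 14 positive and 17 negative log2 fold changes and a median of -0.01. None was called by edgeR or DESeq2. Hdac3, a histone deacetylase gene beyond the 3′ end of the γ cluster, averaged 75.7 ± 4.60 CPM over the 6 libraries labelled cKO, against 81.8 ± 2.18 CPM over the 5 WT libraries (± SD), with a log2 fold change of -0.11 ± 0.05 (SE). Taf7, a subunit gene of the general transcription factor TFIID that lies between the β and γ clusters, was at -0.15 ± 0.07 (log2 ± SE), and Dnd1, a gene of germ cell development, at -0.47 ± 0.20. Dnd1 was low, at 0.611 to 1.11 CPM in the libraries labelled cKO and 0.841 to 1.36 CPM in WT. Hdac3, Taf7 and Dnd1 all had overlapping groups. Of the 20 genes inside the span 4 were tested. They include Gm26672 and BC037039, on the strand opposite to the γ genes, with log2 fold changes of -0.26 ± 0.18 and -0.21 ± 0.20 (SE). As the counting strand is not given, reads of such genes and of the γ genes they face cannot be told apart.

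The regulators of the clusters comprise CTCF and the cohesin ring, which fold the clusters so that a distant enhancer meets a chosen promoter, and DNA methylation and silencing factors, which keep the other promoters off. Of 24 such genes all were tested, with 11 positive and 13 negative log2 fold changes, a median of -0.01 and 0 called by edgeR or DESeq2. Rad21, a subunit of the cohesin ring, averaged 143 ± 2.64 CPM over the 6 libraries labelled cKO, against 133 ± 4.79 CPM over the 5 WT libraries (± SD), with a log2 fold change of 0.10 ± 0.04 (SE). Setdb1, a histone H3 lysine 9 methyltransferase that acts on the clusters, was at -0.14 ± 0.06, and Mau2, a cohesin loader subunit, at -0.09 ± 0.04 (log2 ± SE). All 3 had overlapping groups.

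Among 27 genes for proteins that cut, bind or signal from the clustered protocadherins, 14 were positive and 13 negative, with a median of 0.01 and 0 called by edgeR or DESeq2. Adam10, the protease that sheds γ ectodomains, averaged 89.3 ± 3.88 CPM over the 6 libraries labelled cKO, against 79.5 ± 4.56 CPM over the 5 WT libraries (± SD), with a log2 fold change of 0.17 ± 0.05 (SE). Ptk2, which encodes the focal adhesion kinase that γ and α proteins bind and restrain, was at 0.12 ± 0.04. For Ptk2, alone of the 27, every library labelled cKO lay above every WT library, as for 0.404% of all genes tested. Prkcd, a protein kinase C gene that is also a marker of thalamic tissue, was at -0.33 ± 0.09 (log2 ± SE). Adam10 and Prkcd had overlapping groups. The summed level of the 5 thalamic markers was 73.6 to 82.7 CPM in libraries labelled cKO, against 79.1 to 99.6 CPM in WT. Prkcd is 1 of these 5, so the sum holds its difference, and 2 of the 5 had higher means in libraries labelled cKO. The sum averaged 79.0 CPM in libraries labelled cKO and 86.6 CPM in WT, and Prkcd alone 23.4 and 29.4 CPM. The part of thalamic tissue in the Prkcd value was not tested.

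The 12 non-clustered protocadherins, which are encoded by single genes outside the clusters, gave 10 positive and 2 negative log2 fold changes, with a median of 0.06 and 0 called by edgeR or DESeq2. The positive share was 83.3%, against 77.3% of the tested γ members and 50% of all genes tested. Pcdh20 was at -0.15 ± 0.06, Pcdh7 at 0.17 ± 0.07 and Pcdh17 at 0.09 ± 0.04 (log2 ± SE), each with overlapping groups.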

How the data were processed

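Polyadenylated RNA from 1 hippocampus per library was made into strand-marked (dUTP) libraries, per the labels' protocols. Base calls came from bcl2fastq 2.17.1.14 and the build was mm10, per the submitters' processing notes. Which aligner, counter, annotation and strand setting were used was not given in the sources used here. From these steps the authors deposited raw integer counts for each Ensembl gene for 6 libraries labelled cKO and 5 WT libraries.

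Symbols and exons came from GENCODE M21 (mm10), and 30566 of 30681 genes matched. The members and gene lists were chosen with earlier results of these data known. Genes with low counts were removed by filterByExpr, libraries were scaled by TMM factors, and CPM values were computed from the deposited counts with these factors. The genotype was tested over 16587 genes with edgeR 4.0.16 (R 4.3.3), a robust 2-sided quasi-likelihood F test with Benjamini-Hochberg adjustment at 0.05. The common biological coefficient of variation was 9.56%. Each standard error was derived from the F statistic together with the fold change (95% intervals). Replicates all differed beyond sampling noise (smallest chi-square per degree of freedom 5.70). The fit was tested on simulated data.

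Values per library are given for the C-type genes, the 3 members of smallest unadjusted p and the 3 of highest mean CPM in each cluster, and of other lists up to 3 genes of smallest p. Pcdha8, Pcdhb8, Pcdhga6, Pcdhb16 and the antisense genes were added after their values were seen. Female and male WT libraries were compared by an exact permutation test (scipy 1.17.1). The alternatives were DESeq2 size factors, no filter, the replicate number as a block, DESeq2 1.42.0, a sex term, the male libraries alone, each library left out in turn, and all exon bases as the length.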

Additional observations from a re-analysis of the deposited data

Results flagged for a closer look

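Among 46 groups of values examined, 3 held a library whose gap to its nearest neighbour was large for its group by Dixon's criterion, which chance gives in about 1 in 20 groups. Pcdha9 had 4.80 CPM in cKO replicate 4, where the next library of that group had 2.87 CPM. Pcdhb9 had 13.5 CPM in cKO replicate 1, where the next had 17.5 CPM. Pcdhb14 had 12.4 CPM in WT replicate 1, where the next WT library had 10.5 CPM.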

How the results depend on the processing

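Of the summary results under their alternatives, 66 kept their direction and side of the threshold and 7 did not. The count of all genes called was 0 with edgeR, 3 with no filter and 58 with DESeq2, and leaving out each library in turn gave 0 to 14 (1 without WT replicate 1, 2 without WT replicate 2 and 14 without WT replicate 5). The count of members called was 2 with DESeq2. The C-type share was 34.6% over all exon bases in place of 37.7% over unshared ones. The cause of these moves was not tested. Members with a positive fold change numbered 32 to 37 with a library left out and 41 with a sex term or in the male libraries. The median member fold change was 0.03 to 0.08 with a library left out. Pcdhga11 moved to 0.09 on the log2 scale with a sex term and in the male libraries. Under the 17 alternatives, 5 of the named members changed sign at least once: Pcdhb14 in 5 (lowest -0.03, with the replicate block), Pcdhga11 in 4, Pcdhb17 in 2 (without cKO replicate 6 or WT replicate 1), Pcdhac1 without WT replicate 4 and Pcdha9 without cKO replicate 4.

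Correlations of deviations between libraries of the same replicate number were -0.32, -0.10, -0.14, 0.21 and 0.11, so the numbers were not taken to pair them. With the replicate block 0 genes were called, and 34 members were positive with a median of 0.06. Depth limits Pcdha4, Pcdha8 and Pcdhb1, whose counts were at most 25 in any library.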
